A study of Mus with 2 samples.

Results

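The 35 genes described here encode enzymes of fatty acid oxidation, from the activation of fatty acids and their carriage into mitochondria to the beta-oxidation spiral of mitochondria and peroxisomes. They were chosen by their function and not by any measured value, though with earlier results of these data known. They are 35 of the 20144 genes that had a probe matched by accession on the array. All 35 had a probe, and 34 could be compared between the conditions. The cells were bone marrow derived macrophages (BMDMs) of male C57BL6/J mice, 10 weeks old per the methods, grown for 7 d with 10 ng/mL of M-CSF and then held for 24 hr under M2 conditions, which means 10 ng/mL of IL-4. One culture received 10 µM of GW4064, a synthetic agonist of the farnesoid X receptor (FXR), and the other received DMSO, the solvent. Both cultures received IL-4, so the data hold no culture without M2 polarization, and the number of mice behind each culture is not given in the sources used here. The free-text description of the GW4064 sample repeats that of the DMSO sample, while its title, source and treatment labels all give GW4064.

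Before a long-chain fatty acid can be burned, an acyl-CoA synthetase joins it to coenzyme A, and the carnitine shuttle carries the acyl group across the inner mitochondrial membrane. Each turn of the spiral then removes an acetyl-CoA by an oxidation, a hydration, another oxidation and a thiolysis, and the electron transfer flavoprotein passes electrons to the respiratory chain. In IL-4-activated macrophages this pathway is known for its link to the oxidative metabolism of the M2 state, and nuclear receptors of the PPAR family are known to drive many of its genes.

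Each condition had 1 Agilent array, so no gene has a replicate error or a test, and this small number of arrays sets the precision of all values below. A processed signal is the brightness of a spot after the scanner software had removed the background. A log2 difference is the GW4064 array minus the DMSO array after both arrays were brought to the same 75th percentile, which was a signal of 1209 with DMSO and of 1265 with GW4064. This scaling takes 0.066 off the plain log2 ratio of the signals. Probes printed 10 times gave a measure of the error within the slide. The SD of the log2 difference over the copies had a median of 0.16 for signals under 100, 0.090 from 100 to 1000, 0.072 from 1000 to 10000 and 0.069 above 10000. This copy SD covers spotting and scanning but not the variation between cultures. Scaling both arrays by RNA that was added in known amounts, called spike-in centring here, moved every gene of the pathway by -0.21, and counts by this scaling are given beside the main counts over the pathway.

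Macrophage markers were present on both arrays. Of 10 markers 8 were measured, 6 higher and 2 lower, with log2 differences between -0.25 and 0.14. The lower ones were Adgre1 at -0.25 and Csf1r at -0.24. Cd68 had no matched probe and Cd163 was not well above background. Of 10 stromal cell markers 8 were lower on the GW4064 array and 1 was higher, and their summed signal was 38378 with DMSO and 21742 with GW4064. Of 7 measured neutrophil markers 6 were lower, with summed signals of 13815 and 8973. The adipocyte markers Plin1, Lep, Cidea and Cfd were not well above background on either array, and the 3 that were measured had summed signals of 104 and 324, of which Slc36a2 made up 62.4 and 263. Fewer cells of a type and less RNA per cell cannot be told apart in such bulk samples. The part of these cells in the differences below was not tested.

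None of the 34 measured genes of fatty acid oxidation differed 2-fold between GW4064 and DMSO, and none differed 1.5-fold, while under spike-in centring Acsl3 and Cpt1a were past 1.5-fold, both lower. Among all 13532 genes measured, 2.04% were 2-fold or more higher and 2.71% lower, and 4.39% and 5.56% passed 1.5-fold. Dim spots vary more, and 33 of the 34 genes had a mean signal of 100 or more. Among the 10453 genes at that level, 0.651% were 2-fold or more higher and 0.593% lower, and 1.73% and 1.91% passed 1.5-fold. Of the 34 genes, 16 were higher and 18 lower, against 51.6% of all genes higher and 48.2% lower and 52.6% and 47.4% of those at a signal of 100 or more, and under spike-in centring 3 were higher and 31 lower. By that scaling 16.5% of all genes were higher and 82.7% lower, and 12.2% and 87.8% of those at a signal of 100 or more. The median of the pathway was -0.025 on the log2 scale, beside 0.0068 over all genes. Their differences had an SD of 0.17, beside 0.46 over all genes and 0.27 over those at a signal of 100 or more. The range over the pathway ran from -0.56 for Acsl3 to 0.25 for Acad11. Most of the pathway therefore lay in the band that most genes of these arrays occupied, and the genes that stood at its edges are described one by one below.

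**Figure D1:**
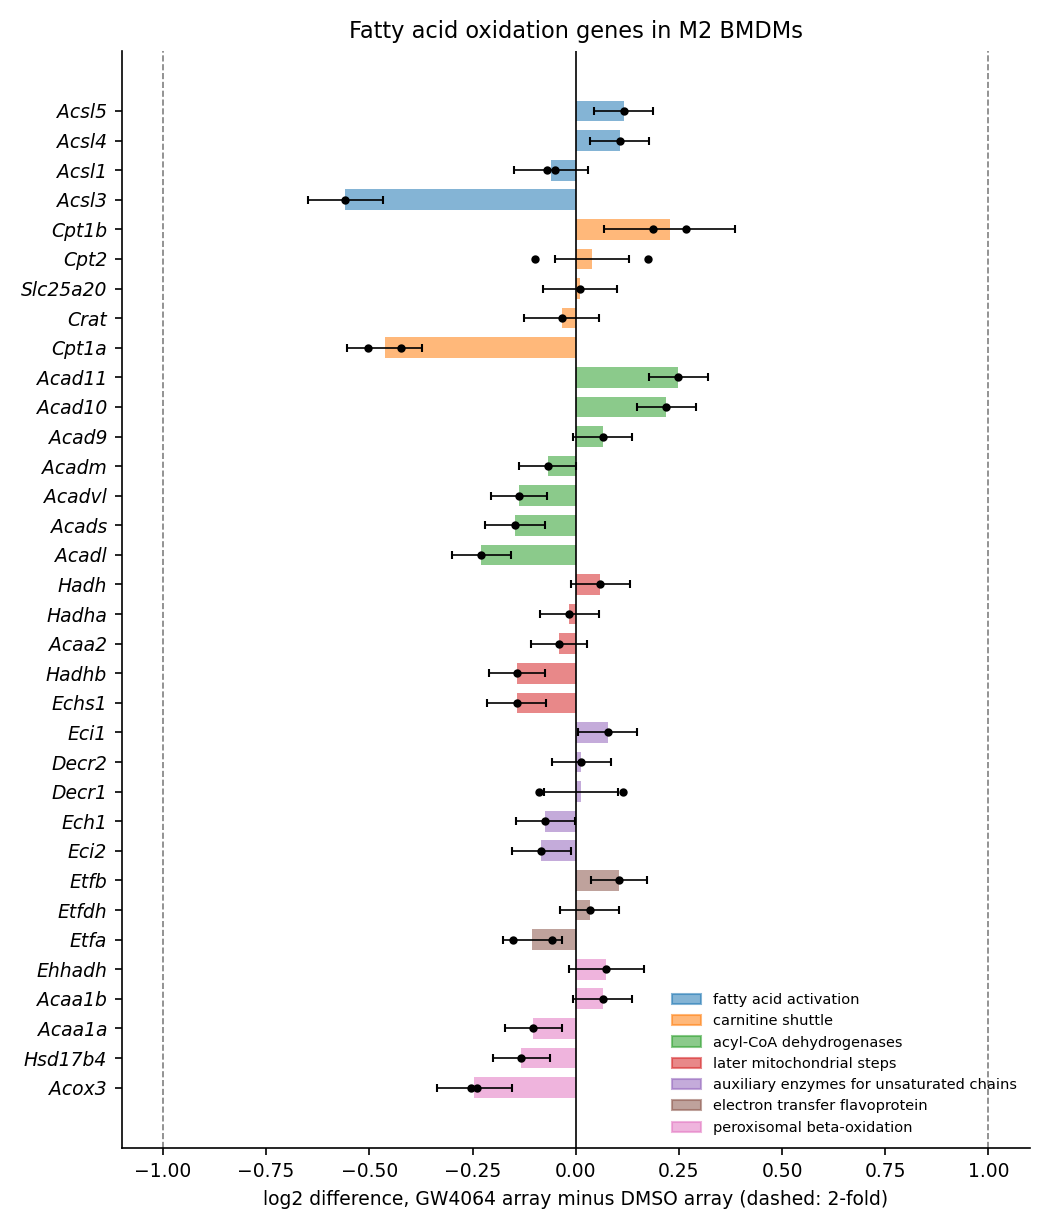
Log2 difference (GW4064 array minus DMSO array, x axis) of each of the 34 measured genes, grouped by role. Bars are the mean over the probes of a gene, points are single probes, error bars are the median SD over copies of probes at that signal (not an SD between cultures) and dashed lines mark 2-fold. Every bar lies inside the 2-fold lines, with Acsl3 (-0.56) and Cpt1a (-0.46) the longest, and with spike-in centring every value would lie 0.21 further to the left.

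By size, 2 genes were 1.2-fold or more lower with GW4064, namely Acsl3 and Cpt1a, and 0 were 1.2-fold or more higher. This threshold was chosen after the data were seen, and by it 12.8% of all genes were lower and 12.5% higher, or 7.61% and 8.07% of those at a signal of 100 or more. Under spike-in centring 15 genes of the pathway were lower by 1.2-fold or more and 0 higher, beside 35.6% and 6.10% of all genes. Against the copy SD, 9 of the 34 genes differed by more than 2 SD, 2 of them higher and 7 lower, while 18.7% of all genes were higher and 17.5% lower by that rule, or 17.0% and 14.5% at a signal of 100 or more. Under spike-in centring 23 were lower and 0 higher by it, beside 54.8% and 6.74% of all genes, so the genes named below as past 2 copy SD are those of the 75th percentile scaling. The scanner software also writes its own error for each spot, which came to between 0.20 and 0.35 on the log2 scale for the difference of a gene of the pathway. By this wider measure 6 genes passed, Acsl3, Cpt1a, Acadl and Acox3 lower and Acad10 and Acad11 higher, and 13.3% of all genes were higher and 13.8% lower, or 11.9% and 10.7% at a signal of 100 or more. Under spike-in centring 18 were lower and 0 higher, beside 45.3% and 5.02% of all genes.

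**Figure D2:**
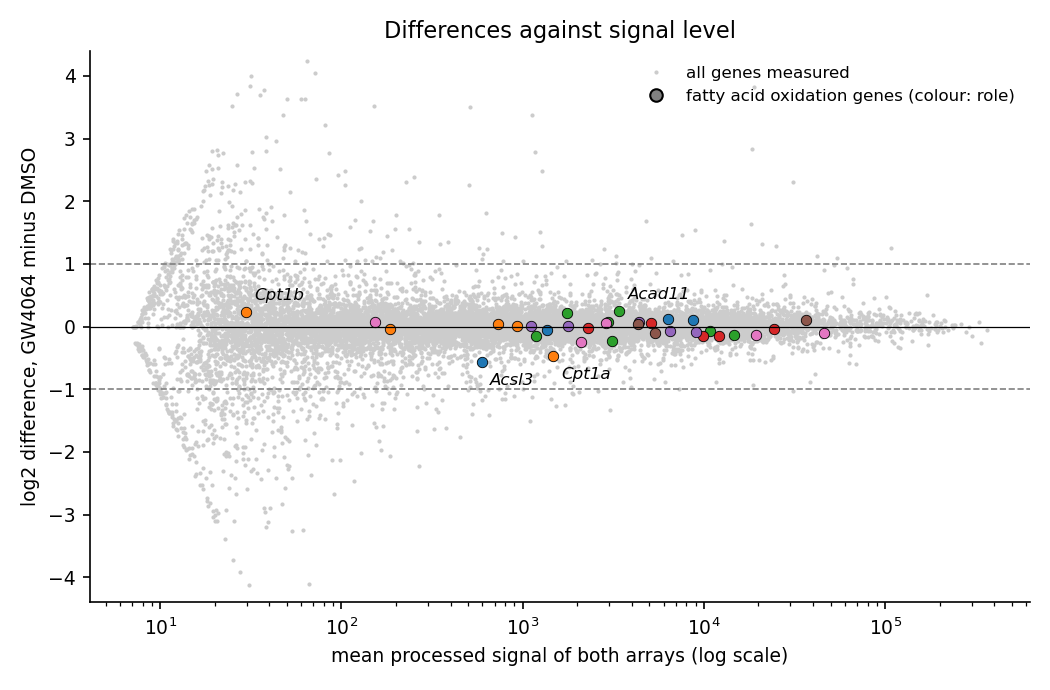
Log2 difference (y axis) against the mean processed signal of both arrays (x axis, log scale) for all 13532 genes measured (grey) and the 34 genes of fatty acid oxidation (coloured by role). Grey points fan out at low signals, where most of the 2-fold differences lie, and the coloured points run along the middle band, with Acsl3 and Cpt1a below it and Cpt1b alone at a mean signal under 100.

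The synthetases that activate fatty acids were split, with 2 of 4 higher and 2 lower (0 and 4 under spike-in centring). Acsl3, which acts at the endoplasmic reticulum and on lipid droplets, had the largest difference of the pathway. The signal of its single spot, matched to NM_028817, was 706 with DMSO and 502 with GW4064, a log2 difference of -0.56 or a 1.47-fold lower level. The copy SD at this signal was 0.090, and 5.88% of all genes had a difference as low or lower. The lowest 5% lay below -0.65 over all genes and below -0.34 over those at a signal of 100 or more. Some areas of the slide are called damaged here because spots that differed 8-fold or more between the arrays lie there in clusters. The spot for Acsl3 had 0 such spots within 300 µm. Acsl1, the main synthetase of many oxidative tissues, differed little on both of its probes, with log2 differences of -0.070 and -0.050. The dimmer probe, at -0.050, lay in a damaged area. Acsl4, which prefers arachidonic acid and similar chains, had signals of 8247 and 9291 and a log2 difference of 0.11. Acsl5 had 5917 and 6710 and a log2 difference of 0.12, with its spot in a damaged area. The synthetases thus differed from each other, and only Acsl3 stood beyond 2 copy SD.

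In the carnitine shuttle, 3 of 5 genes were higher and 2 lower (1 and 4 under spike-in centring), and one gene stood apart. Cpt1a encodes the outer membrane carnitine palmitoyltransferase, the step at which malonyl-CoA holds back the entry of fatty acids into mitochondria. Its main probe, matched to NM_013495, was printed 10 times. On the DMSO array the copies had signals from 6721 to 7752 with a median of 7334, and on the GW4064 array from 5352 to 5873 with a median of 5668. The copies of the 2 arrays did not overlap, and all 10 were lower with GW4064. The share of other probes printed 10 times whose copies also stood apart is not given here. Their log2 difference was -0.42 ± 0.070 (SD over 10 copies of 1 probe on 1 pair of arrays) and ran from -0.51 to -0.29. The second probe for Cpt1a had signals of 393 and 290 and a log2 difference of -0.50. The probes differed by 0.081, about as much as single copies do, and their mean was -0.46, or 1.38-fold lower. Of all genes 7.21% reached or fell below this value. Among genes at a signal of 100 or more the lowest 5% lay below -0.34.

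**Figure D3:**
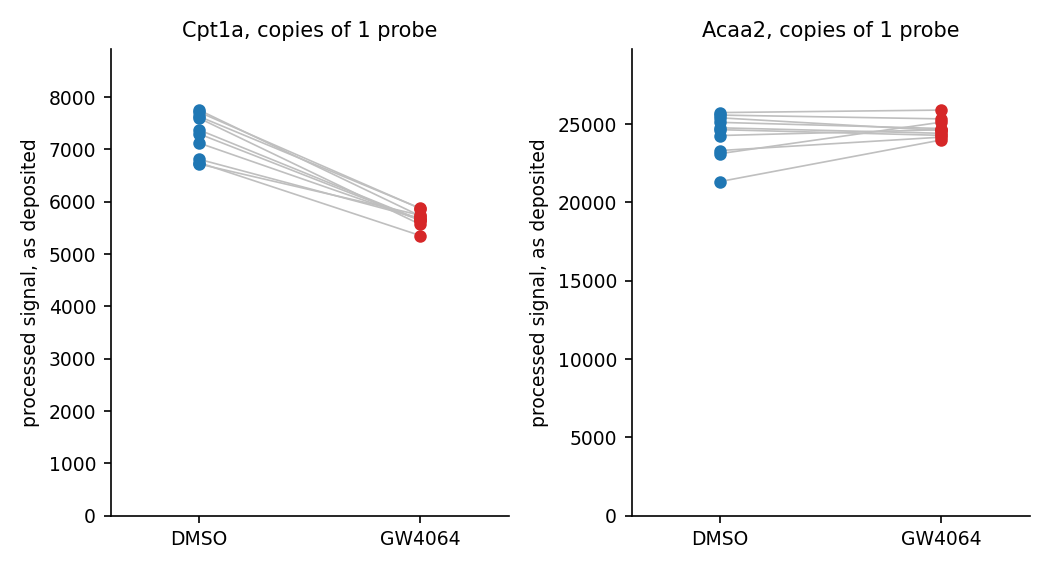
Processed signal (y axis, from 0) of each of the 10 copies of the probe for Cpt1a (left) and of the probe for Acaa2 (right) on the DMSO and GW4064 arrays, as deposited and before the arrays were scaled, with lines joining the same copy. All Cpt1a copies lie lower on the GW4064 array (5352 to 5873 against 6721 to 7752), while the Acaa2 copies of the arrays overlap (21333 to 25736 and 23988 to 25896).

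The other carriers showed smaller differences. Cpt1b, the muscle form of the same enzyme, was barely above background, with signals of 22.1 and 26.3 on one probe and 32.6 and 41.1 on the other. Its mean log2 difference of 0.23 was under 2 copy SD at such signals, and after a normexp background correction it was 0.0071. The probes for Cpt2, the inner membrane partner of Cpt1a, disagreed in sign, with 0.18 on one (2931 and 3466) and -0.097 on the other (171 and 167). Slc25a20, the carnitine-acylcarnitine translocase, had signals of 901 and 949 and a log2 difference of 0.010. Crat, which makes acetylcarnitine, had -0.034, and -0.22 after the normexp correction. Of the shuttle, therefore, Cpt1a alone differed by more than 2 copy SD.

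The acyl-CoA dehydrogenases carry out the first oxidation of each turn and are named for the chain lengths they take. The 4 classical enzymes were all slightly lower with GW4064. Acadvl, for very long chains, had signals of 14956 and 14229 and a log2 difference of -0.14. Acadl, for long chains, had 3291 and 2940 and a log2 difference of -0.23. Acadm, for medium chains, had 10861 and 10846 and a log2 difference of -0.068, which is under 1 copy SD. Acads, for short chains, had 1216 and 1150 and a log2 difference of -0.15. All 4 kept their sign in each of the 11 alternatives, though many of these could not change it. The filters on spots and the choice of probe left the 4 values as they were, and spike-in centring moves every gene lower. Acadl, Acads and Acadvl passed 2 copy SD, though Acads and Acadvl did so narrowly, at copy SDs of 0.072 and 0.069. Each was read at 1 spot.

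The other 3 dehydrogenases of the pathway had values above 0. Acad11 had signals of 3059 and 3802 and a log2 difference of 0.25, the highest of the pathway. Acad10 had 1584 and 1930 and a log2 difference of 0.22. Acad9, known also as an assembly factor of respiratory complex I, had 0.065, which is under 1 copy SD, with -0.022 after the normexp correction and -0.14 under spike-in centring. Acad10 and Acad11 were the only genes of the pathway that were higher by more than 2 copy SD, and they were at 0.013 and 0.043 under spike-in centring. Acad12, which lies next to Acad10 in GRCm38.p6 and is not one of the 35 genes, had a log2 difference of -0.10.

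The later steps of the mitochondrial spiral were near level, with 1 of 5 measured genes higher and 4 lower (0 and 5 under spike-in centring). Hadha and Hadhb encode the subunits of the trifunctional protein, which performs the last 3 reactions on long chains, and they lie next to each other in GRCm38.p6. Hadha had signals of 2266 and 2345 and a log2 difference of -0.016. Hadhb had 12492 and 11843 and a log2 difference of -0.14, at a spot in a damaged area. Hadhb alone of this group passed 2 copy SD, and narrowly, at a copy SD of 0.069. Echs1, the short-chain hydratase, had -0.14, just under 2 copy SD, and Hadh, the short-chain dehydrogenase, had 0.060.

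Acaa2, the mitochondrial thiolase, was printed 10 times and gives the closest reading of a gene that differed little. Its copies ran from 21333 to 25736 with DMSO and from 23988 to 25896 with GW4064, so the arrays overlapped. The log2 difference was -0.041 ± 0.070 (SD over 10 copies of 1 probe on 1 pair of arrays), with 8 copies lower and 2 higher. Acat1, the thiolase of the last turn that also serves ketone metabolism, could not be compared. Its only spot was marked as uneven on the DMSO array and lay in a damaged area. With the marked spot kept, the signals were 1174 and 2000 and the log2 difference was 0.70.

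The auxiliary enzymes, which let unsaturated chains enter the spiral, had log2 differences between -0.088 and 0.11 on single probes. Of the 5 genes 3 were higher and 2 lower (0 and 5 under spike-in centring). The isomerases Eci1 and Eci2 had log2 differences of 0.078 and -0.084. Ech1, which shifts pairs of double bonds, had -0.074 in a damaged area. Decr1, the mitochondrial dienoyl-CoA reductase, had 0.11 on its brighter probe and -0.088 on the dimmer one, and Decr2, its peroxisomal counterpart, had 0.014. No gene of this group passed 2 copy SD.

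The electron transfer flavoprotein, which collects electrons from the acyl-CoA dehydrogenases, showed no common direction among its genes. Etfb had signals of 34402 and 38715 and a log2 difference of 0.10. Etfa, the other subunit, had -0.058 and -0.15 on its probes. Etfdh, which hands the electrons to ubiquinone, had 0.034. Under spike-in centring all 3 were lower, between -0.31 and -0.10.

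In peroxisomes, where the first oxidation yields hydrogen peroxide and very long or branched chains are shortened, 2 of 5 genes were higher and 3 lower (0 and 5 under spike-in centring). Acox3, an acyl-CoA oxidase that takes branched chains, was lower on both probes, from 8581 to 7537 on one and from 577 to 512 on the other. The log2 differences were -0.25 and -0.24, the closest match among the 7 genes read by 2 probes. Hsd17b4, the D-bifunctional protein, had signals of 19856 and 18973 and a log2 difference of -0.13. Ehhadh, the L-bifunctional protein and a known PPAR target in liver, had 145 and 160 and a log2 difference of 0.074. The thiolases Acaa1a and Acaa1b, which are close copies of each other so that their probes may share RNA, had -0.10 and 0.065. Among these, Acox3 alone passed 2 copy SD.

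The probes of a gene give a check that does not rest on single spots. Of the 7 genes with 2 probes, 5 had the same sign on both, namely Acox3, Acsl1, Cpt1a, Cpt1b and Etfa. The share of all genes with 2 probes that had the same sign on both is not given here. Cpt1b was barely above background, and the dimmer probe for Acsl1 lay in a damaged area. The gap between probes had a median of 0.081 and ran from 0.014 for Acox3 to 0.27 for Cpt2. Cpt1a and Acox3 were the genes for which both probes were lower by more than 2 copy SD.

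**Figure D4:**
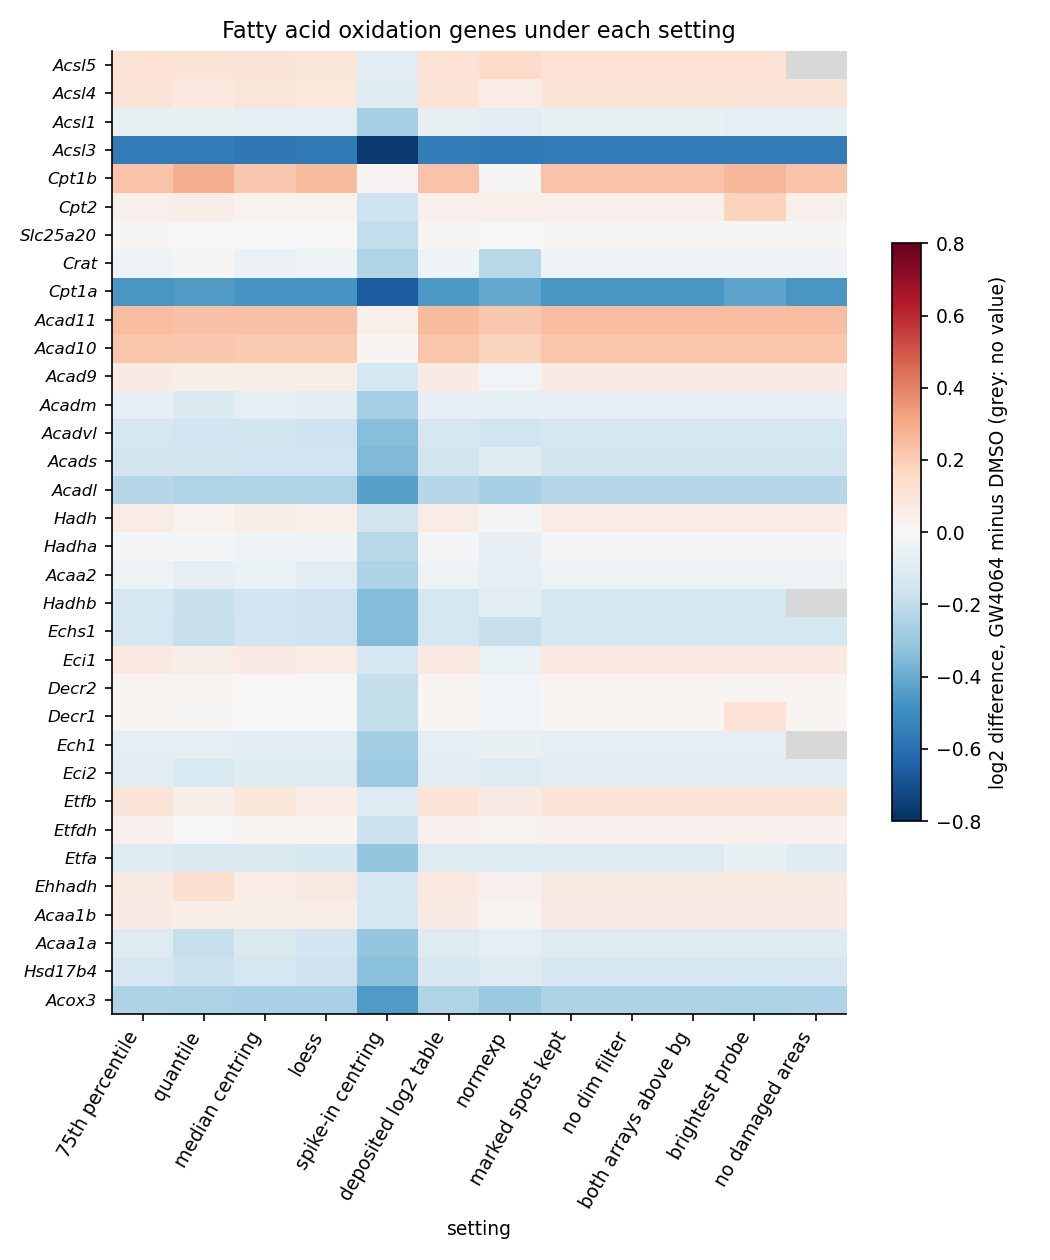
Log2 difference (colour, blue lower and red higher with GW4064, grey no value) of the 34 measured genes (rows, in the order of the bar plot) under the main setting, which scales on the 75th percentile (first column), and 11 alternatives (other columns). Acsl3 and Cpt1a stay the darkest blue in every column, and the spike-in column is lower by 0.21 throughout, leaving 3 genes above 0.

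Of the 34 genes, 18 kept their sign in each of the 11 alternatives, 15 of them lower and 3 higher, the 3 being Acad10, Acad11 and Cpt1b. Hadhb and Ech1 were lower in the 10 alternatives that gave them a value. The other 14 changed sign at least once, 7 of them with spike-in centring alone. That scaling moves every gene by -0.21, so it can take the sign only from genes that were higher. The split of 15 and 3 therefore shows no direction of the pathway, and the share of all genes that kept their sign is not given here. Acsl3 ran from -0.76 to -0.56 and Cpt1a from -0.67 to -0.41 over the alternatives. The normexp correction left 11 genes higher and 23 lower, and 45.4% of all genes higher.

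Other genes of beta-oxidation, 32 in a list from general knowledge, also stayed within 2-fold. Of 29 measured, 12 were higher and 17 lower (3 and 26 under spike-in centring), with a median of -0.028. Phyh, which starts the alpha-oxidation of phytanic acid, had the highest difference, 0.38, in a damaged area. Cpt1c, the brain form of Cpt1, had 0.33 at signals of 24.7 and 32.4, and 0.10 after the normexp correction. Amacr, which prepares branched chains for the peroxisome and was printed 10 times, had 0.28 ± 0.054 (SD over 8 copies of 1 probe), with some of its copies in damaged areas. Acacb, which makes the malonyl-CoA that inhibits Cpt1a, had -0.49 at signals of 30.2 and 22.5, in a damaged area, and -0.17 after the normexp correction. The probes for Nudt7, a peroxisomal CoA hydrolase, had -0.73 in a damaged area and -0.24 outside it. Crot, which exports shortened chains from peroxisomes, had -0.33.

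**Figure D5:**
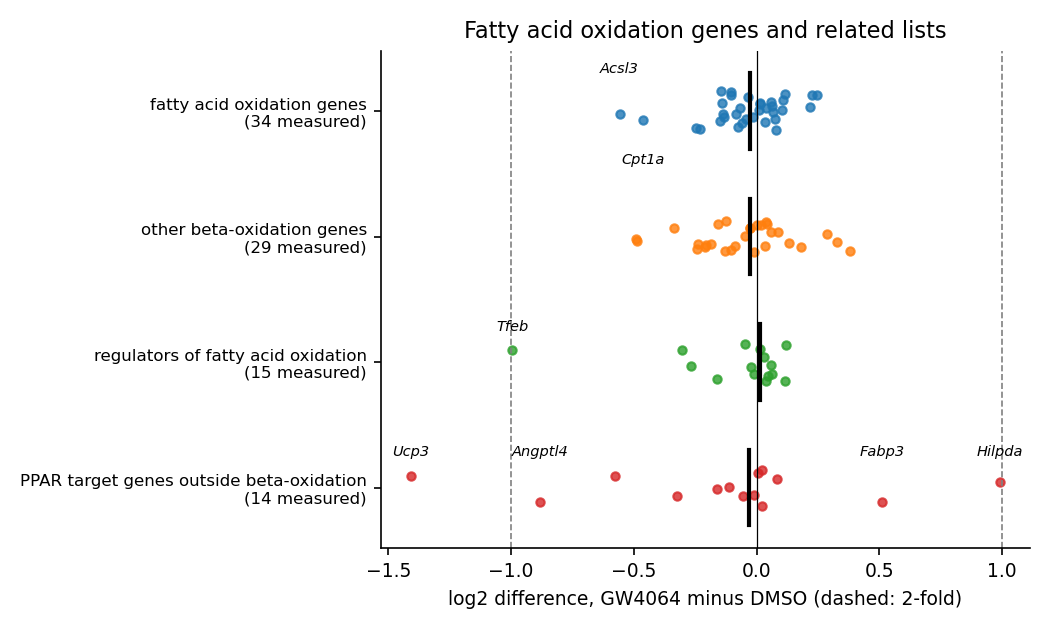
Log2 difference (x axis) of the measured genes of fatty acid oxidation and of 3 related lists (rows), with 1 point per gene, the median as a black bar and 2-fold as dashed lines; vertical scatter within a row carries no value. The first 2 rows stay well inside 2-fold, while Tfeb, Angptl4 and Hilpda lie near the lines and Ucp3 beyond, and with spike-in centring all points would lie about 0.21 further left.

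The regulators of the pathway were measured for 15 of 17 genes, of which 8 were higher and 7 lower (0 and 15 under spike-in centring), with a median of 0.015. Ppara had 0.060 on the only one of its 3 probes above background, with signals of 229 and 250. Ppard had signals of 1000 and 936 and a log2 difference of -0.16. Pparg, which IL-4 is known to induce in macrophages, was printed 10 times and had -0.30 ± 0.063 (SD over 10 copies of 1 probe). Ppargc1b, a coactivator tied to oxidative metabolism in M2 macrophages, had 0.048, and neither probe for Ppargc1a was well above background. Tfeb, a factor of lysosomal and lipid breakdown, had the largest difference of this list, from 1386 to 727, with -0.996 on the log2 scale at 1 spot and between -1.20 and -0.92 over the alternatives. Rxra, the partner of PPARs and FXR, had -0.27 at a mean signal of 59.5. Its brighter probe had -0.41 and the other -0.12. The highest 3 were Med1, Nrf1 and Nrip1, at 0.12, 0.12 and 0.061. The probes for Med1 ran from -0.014 to 0.26 and those for Nrf1 from 0.034 to 0.19, with the brightest probe the lowest in both genes.

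Target genes of PPARs outside beta-oxidation ran from -1.41 to 0.99, with 6 of 14 measured genes higher and 8 lower (2 and 12 under spike-in centring). Angptl4, a secreted inhibitor of lipoprotein lipase, had signals of 4733 and 2685 and a log2 difference of -0.88. Pdk4, which spares glucose when fat is burned, had 87.2 and 61.2 and a log2 difference of -0.58, in a damaged area. Hilpda, which blocks the release of fatty acids from lipid droplets and is also induced by hypoxia, had 1908 and 3912 on one probe and 1775 and 3759 on the other, log2 differences of 0.97 and 1.02. Fabp3, a fatty acid carrier, had 0.59 and 0.43 on its probes. Plin2, the coat protein of lipid droplets, had signals of 80543 and 84641 and a log2 difference of 0.0059, and Fabp4, another carrier, had 0.085. The brighter probe for Ucp3 had -0.25, and the other was at least 5.95-fold lower, in a damaged area and not well above background with GW4064, so that the gene mean of -1.41 rests on that spot.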

How the data were processed

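The authors labelled RNA with Cy3, hybridised 1 Agilent array per condition and deposited the intensity of each spot from Agilent Feature Extraction 10.7.1.1, background-subtracted but not scaled between arrays. They also deposited a log2 table. Its columns have medians of 0.035 and -0.051. Once a constant of 0.0022 was removed, their difference lay within 0.001 of the one computed here at each of 39200 probes, so that it is on the same scale and in the same direction, while the baseline of each probe is unknown. The methods name GeneSpring for the pathway analysis of normalized data, and the software that made the table is not given in the sources used here.

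Each array was scaled by subtracting, on the log2 scale, the 75th percentile of its 43020 non-control spots from the processed signals. Spots marked as uneven or as outliers among copies (399 with DMSO, 207 with GW4064) were left out, and copies of a probe were averaged. Of 39429 probes, 22518 and 22936 were well above background, and the lowest signals among them were 15.7 and 15.1. A probe above background on 1 array only was given a bound there. Probes above background on at least 1 array were averaged per gene. Accessions without versions matched 26581 probes to 1 symbol each in RefSeq of GRCm38.p6. The array was designed on another build, so no coordinates are given. A spot counted as in a damaged area when, within 300 µm, at least 2 others differed 8-fold or more, which held for 16.5% of the spots.

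No test was possible with a single array per condition, so sizes are given. All 35 genes could be named. From the other lists, genes past 2-fold and the 3 highest and 3 lowest measured on both arrays were to be named, with a few regulators and targets whatever their values. Not every gene this rule allows is described. The genes and lists were chosen with earlier results of these data known. The calculations were tested on simulated data. Values were computed in Python 3.11.15 (pandas 2.3.3, numpy 2.4.6, statsmodels 0.14.6) and plotted with matplotlib 3.10.9, and normexp was run with limma 3.58.1 in R 4.3.3. The alternatives were quantile, loess (span 0.3), median and spike-in scaling, the log2 table, normexp (offset 50), marked spots kept, other filters on dim probes, the brightest probe, damaged areas left out and other thresholds.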

Additional observations from a re-analysis of the deposited data

How the results depend on the processing

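No paired analysis was possible because there is only 1 array of each condition. The number of fatty acid oxidation genes past 2-fold was 0 in each direction under all 11 alternatives run on the values, and 0 were past 1.5-fold or 4-fold in the main setting. At 1.2-fold, a threshold added after the data were seen, 2 were lower and 0 higher. Combined with spike-in centring, a combination also added then, 2 were lower at 1.5-fold and 15 at 1.2-fold, beside 8.87% and 35.6% of all genes. Spike-in centring gave 3 higher and 31 lower with a median log2 difference of -0.23, by construction, since it moves every gene by the same amount. In the other 10 alternatives the number higher lay between 11 and 17 and the median between -0.060 and -0.0066. Of 371 values of single genes under an alternative, 330 moved by less than the copy SD, but much of this count was fixed in advance. Other filters on dim probes and keeping marked spots left the measured genes as they were. The brightest probe could change only genes with 2 probes. The log2 table moved each gene by 0.0022, and spike-in centring moved each by more than its copy SD. The count is therefore no check on the values. Leaving out damaged areas removed Acsl5, Hadhb and Ech1. A match through a gene name column was planned and not run, since the scanner files used here hold accessions only. Spots near background and the single array per condition limit what sizes can be told apart.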

Other observations

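The genes that FXR is known to control directly were mostly near or below background. Nr1h4, which encodes FXR, had 1 probe, with signals of 3.46 and 3.24, not well above background on either array. The paper measured Nr1h4 mRNA by real-time PCR and found more in BMDMs than in splenic myeloid cells. The single array probe therefore does not show that Nr1h4 was absent. Of 8 genes in this list 4 were measured. Nr0b2, the classical FXR target in liver, had signals of 22.5 and 45.5 and a log2 difference of 0.95, in a damaged area, and 0.35 after the normexp correction. Abcb11, the bile salt export pump, and Slc51b, a subunit of the bile acid carrier of the basolateral membrane, were not well above background with GW4064 and were at least 3.15-fold and 3.14-fold lower there, from DMSO signals of 58.5 and 45.3. After the normexp correction neither was 2-fold lower, with log2 differences of -0.48 and -0.67. Abcb4, a phospholipid transporter, had 6016 and 6835 and a log2 difference of 0.12, and -0.087 under spike-in centring. The probes for Slc51a, Fgf15 and Slc10a2 were not well above background on either array.

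Outside fatty acid oxidation, 8 M2 markers were measured on the same arrays, 6 of them higher and 2 lower, and Arg1 alone was past 2-fold. Arg1 had signals of 4875 and 72297 and a log2 difference of 3.82, and Retnla had 32778 and 64452 and 0.91. Mgl2 had 0.99 and Clec10a 0.84, both lectins of M2 macrophages, while Ccl24 had 0.21 and Chil3 0.066. The lower markers were Mrc1 at -0.34 and Pdcd1lg2 at -0.41.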
